A study of Mus musculus with 13 samples.

Results

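Bile acids and other organic anions cross the hepatocyte through a small set of membrane transporters, and 10 of their genes are described here: Slc10a1, Slc10a2, Slco1a1, Slco1a4, Slco1b2, Abcb11, Abcb4, Abcc2, Abcc3 and Abcc4. They were taken as a list by name, 5 uptake carriers and 5 efflux pumps, out of 18820 genes with an array feature of their own symbol. Every listed gene had exactly 1 such feature, so none was left out. Hepatocytes take bile acids up from sinusoidal blood through sodium-dependent carriers and organic anion transporting polypeptides. They secrete them into the bile canaliculus through ATP-driven pumps, and a second set of pumps on the sinusoidal (basolateral) side can return organic anions to blood. In rodents the liver levels of several of these carriers mature after weaning and differ between the sexes.

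The series profiled livers of mice on the C57BL/6J background with Affymetrix whole-transcript arrays, 1 array per liver, 13 in all. The groups were LiSel1lKO at 9 weeks of age (n = 3), wildtype at 9 weeks (n = 3), LiSel1lKO at 3 weeks (n = 4) and wildtype at 3 weeks (n = 3). LiSel1lKO mice carried loxP sites around exon 6 of Sel1l and Cre recombinase under the albumin promoter, which is active in hepatocytes. Deletion in other liver cells, bile duct cells among them, was not measured here. The flox allele had been crossed to an FLPe deleter line to remove its lacZ-neo cassette. Whether the wildtype mice carried floxed alleles or Cre is not given in the sources used here. All mice were fasted for 5 to 6 hours in the morning before the liver was taken. Sel1L is the partner of the ubiquitin ligase Hrd1 in the degradation of misfolded proteins of the endoplasmic reticulum. The comparisons ask whether its loss changes transporter transcripts in young adult and in weanling liver.

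Values are the authors' log2 expression from robust multi-array averaging (RMA), and array medians lay between 3.72 and 3.81. Differences are given as mean log2 difference ± SE from limma's moderated test, with Benjamini-Hochberg adjustment across the whole table of 35556 features. A gene counts as changed where its adjusted p is under 0.05. Sel1l was lower in every LiSel1lKO liver than in any wildtype liver of its age, at 7.54 to 7.90 against 8.70 to 8.78 at 9 weeks and at 7.10 to 8.42 against 8.77 to 8.94 at 3 weeks. Its difference of -1.02 at 9 weeks and -1.21 at 3 weeks did not pass the threshold (adjusted p = 0.108 and 0.391). Whether its probes lie in the deleted exon is not given in the sources used here. Hepatocyte markers were present in all livers, with Alb between 13.26 and 13.33 in LiSel1lKO and 13.26 and 13.29 in wildtype at 9 weeks. The labels do not give the sex of the mice. The Y-linked transcripts Kdm5d, Eif2s3y and Uty lay above the array median in all 13 livers, and Xist lay below it in all 13. Groups overlapped for Xist, Kdm5d and Uty at both ages. Eif2s3y stood at 6.62 to 6.91 in LiSel1lKO livers and at 6.55 to 6.61 in wildtype livers of 9 weeks, without overlap, and at 6.40 to 6.95 against 5.89 to 6.54 at 3 weeks. In whole liver, fewer cells of a type and less RNA per cell cannot be told apart.

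Among the 10 listed genes, those that stood apart between genotypes at 9 weeks were uptake carriers. The further efflux pumps Abcg8, Abcg5 and Abcg2, outside this list, were lower in LiSel1lKO liver and are described below. Slco1a4, which encodes a sinusoidal organic anion carrier (OATP1A4) of bile acids, steroid conjugates and cardiac glycosides, rose 3.73-fold in LiSel1lKO liver. Slc10a1 (NTCP, the main sodium-dependent bile acid carrier of the sinusoidal membrane), Slco1a1 (OATP1A1, a carrier of steroid conjugates and bile acids) and Slco1b2 (OATP1B2, a carrier of unconjugated bile acids and bilirubin) had lower values in every LiSel1lKO liver than in any wildtype liver, without passing the threshold. The groups overlapped for all 5 efflux pumps. Of the 10 genes 1 rose and 0 fell, where 1.52% of all features passed the test, 1.03% higher and 0.484% lower. An unadjusted p under 0.05 was reached by 5 of the 10, beside 13.9% of features. Groups did not overlap for 4 of the 10, 3 lower and 1 higher, beside 18.4% of all features (8.52% lower and 9.89% higher).

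**Figure D1:**
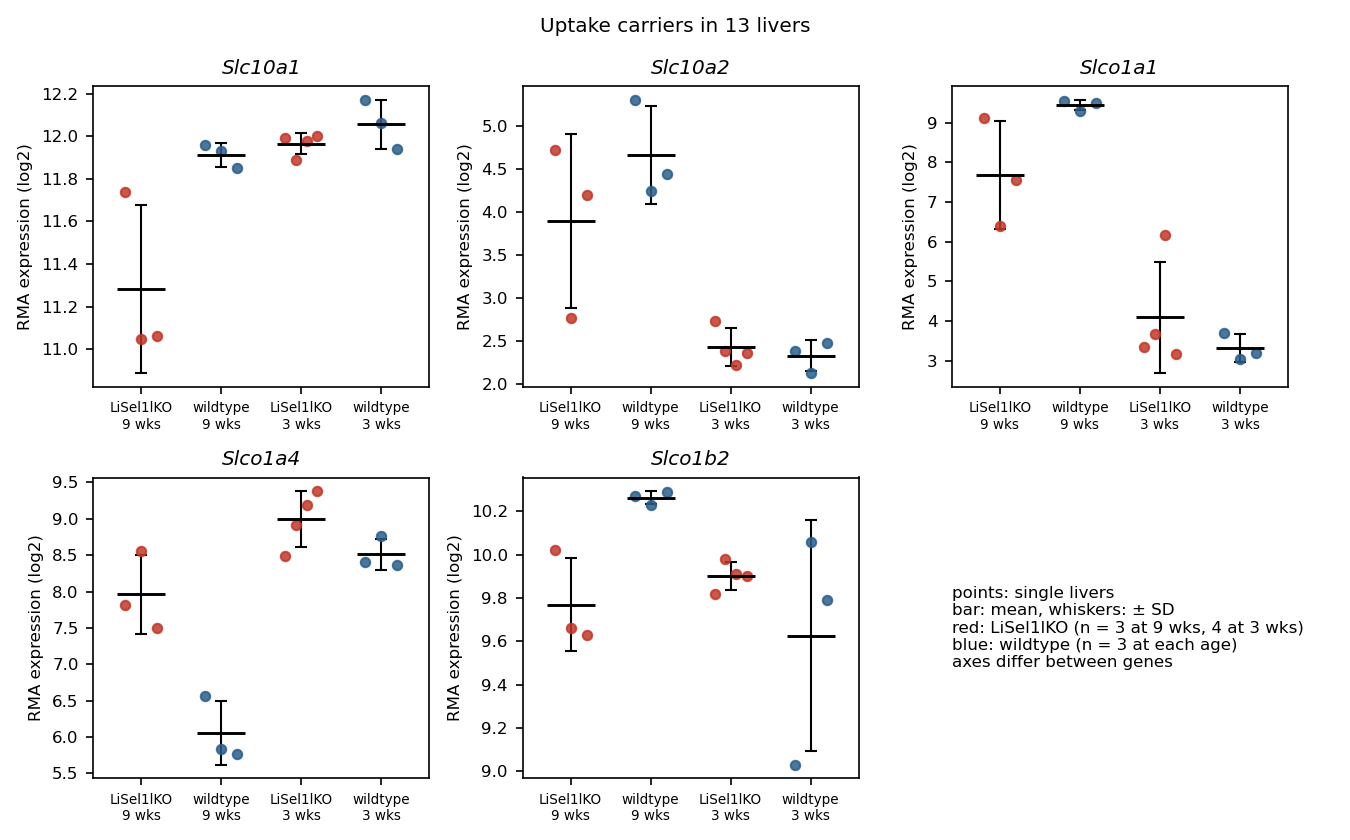
RMA log2 expression of the 5 uptake carriers in each liver (points), with the group mean (bar) and ± SD (whiskers), LiSel1lKO in red and wildtype in blue, and a separate axis for each gene. At 9 weeks Slco1a4 lies higher in all 3 LiSel1lKO livers (7.50 to 8.56) than in the wildtype livers (5.77 to 6.56), while Slc10a1, Slco1a1 and Slco1b2 lie lower.

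Slco1a4 stood at 7.82, 8.56 and 7.50 in the LiSel1lKO livers, against 6.56, 5.84 and 5.77 in the wildtype livers of 9 weeks. The lowest LiSel1lKO liver lay almost 1 log2 unit above the highest wildtype liver. The difference was 1.90 ± 0.31 (adjusted p = 0.0177). Single livers decide this call. It was lost without wildtype replicate 2 (adjusted p = 0.0738), wildtype replicate 3 (0.0518), LiSel1lKO replicate 2 (0.0708) or LiSel1lKO replicate 3 (0.0516), and when only the 9-week groups were fitted (0.166), while the difference stayed between 1.60 and 2.15 whichever liver was left out.

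Slco1a1 stood at 9.11, 6.40 and 7.56 in LiSel1lKO livers and at 9.55, 9.30 and 9.49 in wildtype livers at 9 weeks. The wildtype livers lay close together, while the LiSel1lKO livers ranged from just under wildtype to far below it. The difference of -1.76 ± 0.77 had a 95% interval of -3.44 to -0.07 and did not pass the test over all features (adjusted p = 0.337). It was -2.47 without LiSel1lKO replicate 1 and -1.11 without replicate 2. Replicate 1, the liver nearest to wildtype, also had the highest Sel1l value of its group (7.90). Its mean level of Kupffer cell and macrophage markers was 6.73, against 7.85 and 7.86 in replicates 2 and 3. Whether these bear on Slco1a1 was not tested.

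Slco1a1 and Slco1a4 are neighbours on mouse chromosome 6, with 51.0 kb between them, and Slco1b2 lies 118.8 kb from Slco1a4. Since Slco1a1 and Slco1a4 changed in opposite directions with age in wildtype liver, the RefSeq promoters (GRCm38.p6, 250 bases before to 50 after the annotated start) of Slco1a1 and Slco1a4 are shown. The promoter of Slc10a1, which lay lower in LiSel1lKO livers as Slco1a1 did at 9 weeks, is shown with them. Of its annotated starts, the one whose window held the STAT5 motif was chosen for printing. Capitals mark matches to the motifs searched.
Slco1a1, chr6:141946913-141947212, minus strand: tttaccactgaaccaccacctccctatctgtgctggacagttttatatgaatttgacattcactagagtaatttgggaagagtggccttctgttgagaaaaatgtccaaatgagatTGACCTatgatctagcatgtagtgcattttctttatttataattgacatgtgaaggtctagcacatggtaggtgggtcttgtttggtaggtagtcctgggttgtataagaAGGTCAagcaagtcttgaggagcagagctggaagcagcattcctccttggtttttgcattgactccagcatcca
Slco1a4, chr6:141856171-141856470, minus strand: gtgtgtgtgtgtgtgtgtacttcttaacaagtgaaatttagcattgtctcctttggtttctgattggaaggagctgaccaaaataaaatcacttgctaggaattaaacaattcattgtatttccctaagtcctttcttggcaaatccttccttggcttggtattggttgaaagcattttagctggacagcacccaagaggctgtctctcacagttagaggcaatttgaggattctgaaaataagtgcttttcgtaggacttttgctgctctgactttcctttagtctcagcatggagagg
Slc10a1, chr12:80968656-80968955, minus strand: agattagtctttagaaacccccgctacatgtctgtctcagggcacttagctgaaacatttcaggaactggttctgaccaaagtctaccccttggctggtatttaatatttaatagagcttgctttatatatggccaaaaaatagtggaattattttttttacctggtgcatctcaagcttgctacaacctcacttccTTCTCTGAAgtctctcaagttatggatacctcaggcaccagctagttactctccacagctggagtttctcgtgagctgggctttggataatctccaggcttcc
The Slco1a1 window held AGGTCA, the half-site of many nuclear receptors, once on each strand. The Slco1a4 window held none of the 10 motifs searched. The Slc10a1 window, chosen because it held the STAT5 motif TTCNNNGAA, had it 53 to 45 bases before the start. The window of the other annotated Slc10a1 start held AGGTCA and no STAT5 motif. STAT5 carries growth hormone signals to liver genes.

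Promoters were matched for 9 of the 10 genes (11 windows, since Slc10a1 and Abcc4 have 2 starts each). TTCNNNGAA was found in 3 of these 11, those of Slco1b2, Slc10a1 and Abcc4, beside 8.30% of all 32851 windows on either strand. AGGTCA was found in 5 of 11 beside 16.3%, the HNF1 half-site GTTAAT in 2 beside 7.10%, and the antioxidant response motif TGACNNNGC in 3 beside 12.4%. The other motifs searched were in 0 of the 11: the FXR inverted repeat IR1 (0.00913% of all windows), the PXR direct repeat DR3 (0%), the HNF4 motif CAAAGTCCA (0.475%), the XBP1 motif TGACGTGG (0.676%), the ER stress element ERSE (0.119%) and the cyclic AMP response element TGACGTCA (1.79%). A match is a run of letters in this window, and enhancers outside it were not searched.

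Slc10a1 stood at 11.74, 11.05 and 11.06 in LiSel1lKO livers and at 11.96, 11.93 and 11.85 in wildtype livers at 9 weeks. The difference was -0.63 ± 0.16 (0.645-fold, adjusted p = 0.0761). It passed when only features with 1 gene symbol were tested (adjusted p = 0.0405), and without LiSel1lKO replicate 1 it was -0.86 (adjusted p = 0.00144). Without LiSel1lKO replicate 2 it was -0.51. The call was gained in 3 of 21 settings, and adjusted p reached 0.301 over all of them. Slco1b2 stood at 10.02, 9.66 and 9.63 against 10.27, 10.23 and 10.29, and its difference was -0.49 ± 0.21 (adjusted p = 0.319). Replicate 1 was the LiSel1lKO liver nearest to wildtype for Slc10a1, Slco1a1 and Slco1b2. Slc10a2, the apical bile acid carrier of ileum and bile duct cells, overlapped between genotypes, with 4.73, 2.77 and 4.20 in LiSel1lKO livers and 5.31, 4.25 and 4.44 in wildtype livers (difference -0.76 ± 0.42, adjusted p = 0.462). Bile duct markers (10 of 13 listed genes measured) had a mean level of 4.08 to 4.21 in LiSel1lKO and 4.11 to 4.54 in wildtype livers at 9 weeks, and the highest wildtype liver in both this level and Slc10a2 was replicate 1. Cftr lay between 1.77 and 2.09 and Krt19 between 2.65 and 4.06 in all livers. The part of bile duct cells in the Slc10a2 values was not tested. Hepatocyte markers (10 of 12 measured) had a mean level of 12.1 to 12.21 against 12.18 to 12.29.

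**Figure D2:**
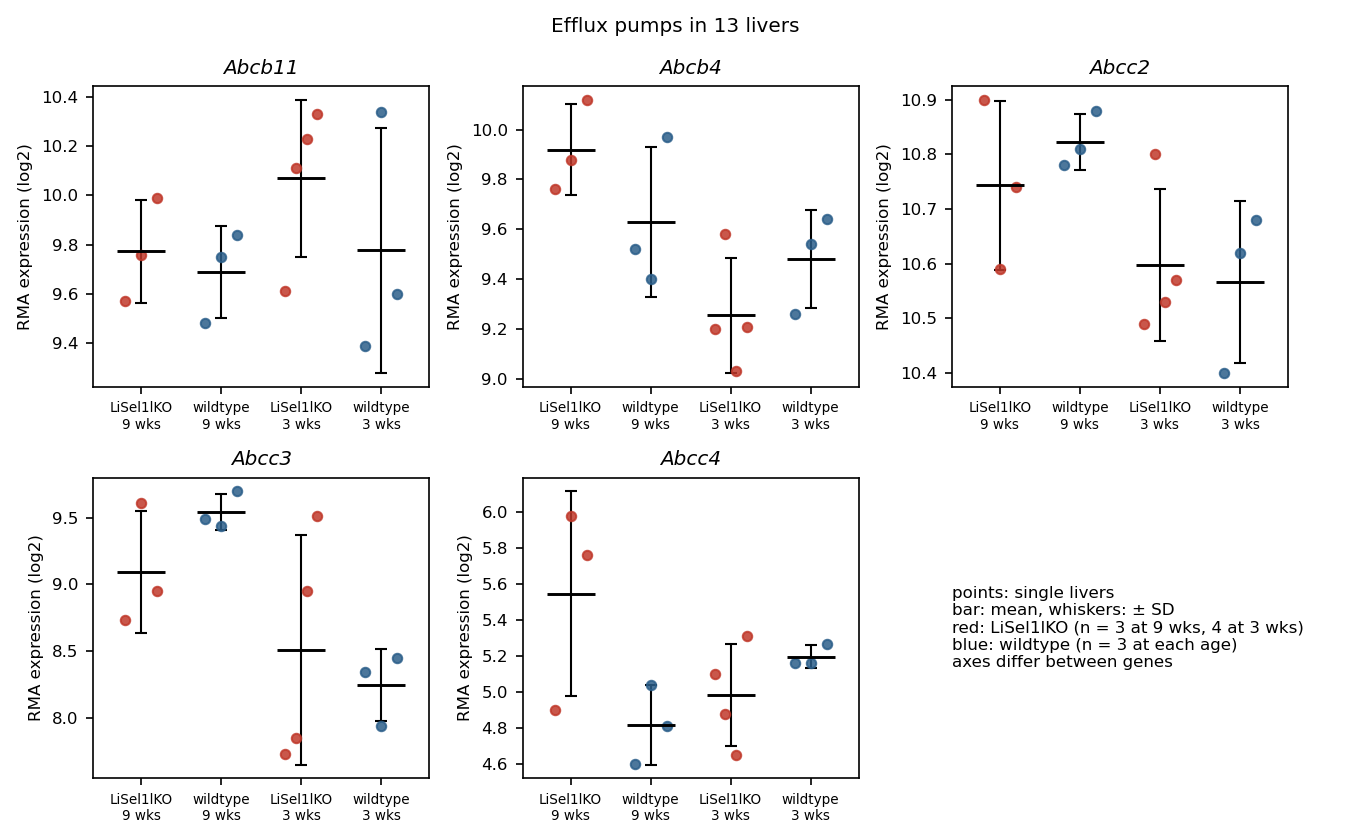
RMA log2 expression of the 5 efflux pumps in each liver (points), with the group mean (bar) and ± SD (whiskers), LiSel1lKO in red and wildtype in blue, and a separate axis for each gene. The genotypes overlap at both ages for every pump, and Abcc3 and Abcc4 spread more among LiSel1lKO livers than among wildtype livers.

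Among the canalicular pumps at 9 weeks, Abcb11 (BSEP, the bile salt export pump) stood at 9.57, 9.76 and 9.99 in LiSel1lKO livers and at 9.48, 9.75 and 9.84 in wildtype livers. Its difference was 0.08 ± 0.24, with a 95% interval of -0.46 to 0.62. Abcc2 (MRP2, which exports bilirubin and glutathione conjugates) stood at 10.90, 10.59 and 10.74 against 10.78, 10.81 and 10.88, a difference of -0.07 ± 0.11 with an interval of -0.32 to 0.17. Abcb4 (MDR2, which flips phosphatidylcholine into bile) stood at 9.76, 9.88 and 10.12 against 9.52, 9.40 and 9.97, a difference of 0.29 ± 0.18, with an interval of -0.11 to 0.68. The intervals of Abcb11, Abcc2 and Abcb4 include 0 and leave room for differences of up to 0.68 log2 units.

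The basolateral pumps were more variable. Abcc4 (MRP4, which exports bile acids together with glutathione) stood at 4.90, 5.98 and 5.76 in LiSel1lKO livers and at 4.60, 5.04 and 4.81 in wildtype livers at 9 weeks. Replicates 2 and 3 lay above every wildtype liver and replicate 1 lay within their range. The difference was 0.73 ± 0.25 (adjusted p = 0.203). It was 1.05 without replicate 1 (adjusted p = 0.0140) and 0.51 without replicate 2. Over all left-out livers its adjusted p reached 0.516. Abcc3 (MRP3, which exports glucuronides) stood at 8.73, 9.61 and 8.95 against 9.49, 9.44 and 9.70. Its difference was -0.44 ± 0.41 (adjusted p = 0.709), with replicate 2 inside the wildtype range and replicates 1 and 3 below it.

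At 3 weeks no transporter passed the test, as was so for 0% of all features, and 0 of the 10 had an unadjusted p under 0.05 in limma, beside 7.41% of all features. Groups overlapped for all 10, where they did not overlap for 7.41% of features (3.88% higher and 3.53% lower). Of the 10 differences 7 lay above 0, with a median of 0.18 beside 0.00 over all features. At 9 weeks 6 of 10 lay below 0, with a median of -0.26 beside -0.01.

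Slco1a4 stood at 8.49, 8.91, 9.19 and 9.38 in LiSel1lKO livers and at 8.40, 8.76 and 8.37 in wildtype livers at 3 weeks, a difference of 0.48 ± 0.29 (adjusted p = 0.753). Slco1a1 stood at 3.34, 3.69, 6.18 and 3.18 against 3.71, 3.05 and 3.21. Replicate 3 alone lay above the array median, and without it the difference of 0.78 ± 0.72 was 0.08. Slc10a1 stood at 11.99, 11.89, 11.98 and 12.00 against 12.17, 12.06 and 11.94, with a difference of -0.09 ± 0.15.

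Slco1b2 lay between 9.82 and 9.98 in LiSel1lKO livers and between 9.03 and 10.06 in wildtype livers, where replicate 1 was the low liver. Its difference was 0.28 ± 0.20 and was -0.02 without that liver. Slc10a2 lay below the array medians in all 7 livers of this age, at 2.23 to 2.74 in LiSel1lKO and 2.13 to 2.48 in wildtype.

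Abcc3 split the LiSel1lKO livers of 3 weeks, at 7.73, 7.85, 8.95 and 9.51 against 8.34, 7.94 and 8.45 in wildtype. Replicates 3 and 4 lay above every wildtype liver, replicates 1 and 2 below every one, and the mean difference was 0.27 ± 0.39. It was -0.07 without replicate 4. Sel1l was 7.20 and 7.10 in replicates 3 and 4, against 8.42 and 7.90 in replicates 1 and 2, and the part of this in the Abcc3 values was not tested. Abcc4 (difference -0.22 ± 0.23), Abcb11 (0.29 ± 0.23), Abcb4 (-0.23 ± 0.17) and Abcc2 (0.03 ± 0.10) overlapped between genotypes.

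Levels of other cell types' markers were set beside these values. All 10 Kupffer cell and macrophage markers lay lower in LiSel1lKO livers of 3 weeks (mean level 7.33 to 7.65 against 7.78 to 7.91), with 0 of 10 past the test. Sinusoidal endothelial markers lay at 7.84 to 8.12 against 8.13 to 8.2. At 9 weeks the Kupffer level was 6.73, 7.85 and 7.86 in LiSel1lKO livers, against 7.18, 7.59 and 7.46 in wildtype livers. LiSel1lKO replicate 1 thus lay below every wildtype liver, and replicates 2 and 3 lay above every one. Endothelial markers overlapped at 9 weeks, at 7.79 to 7.88 against 7.78 to 7.87. Red cell and erythroblast markers (5 of 9 measured) did not overlap between genotypes at either age, with a mean level of 4.19 to 4.46 against 4.6 to 4.79 at 9 weeks and of 4.43 to 4.82 against 4.96 to 5.52 at 3 weeks, and 0 of 5 passed the test. Stellate cell markers overlapped at both ages. Bile duct markers did not overlap at 3 weeks, at 4.08 to 4.14 against 4.18 to 4.21, with 9 of 10 below 0 and 0 past the test. The part of these cell types in the transporter values was not tested.

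**Figure D3:**
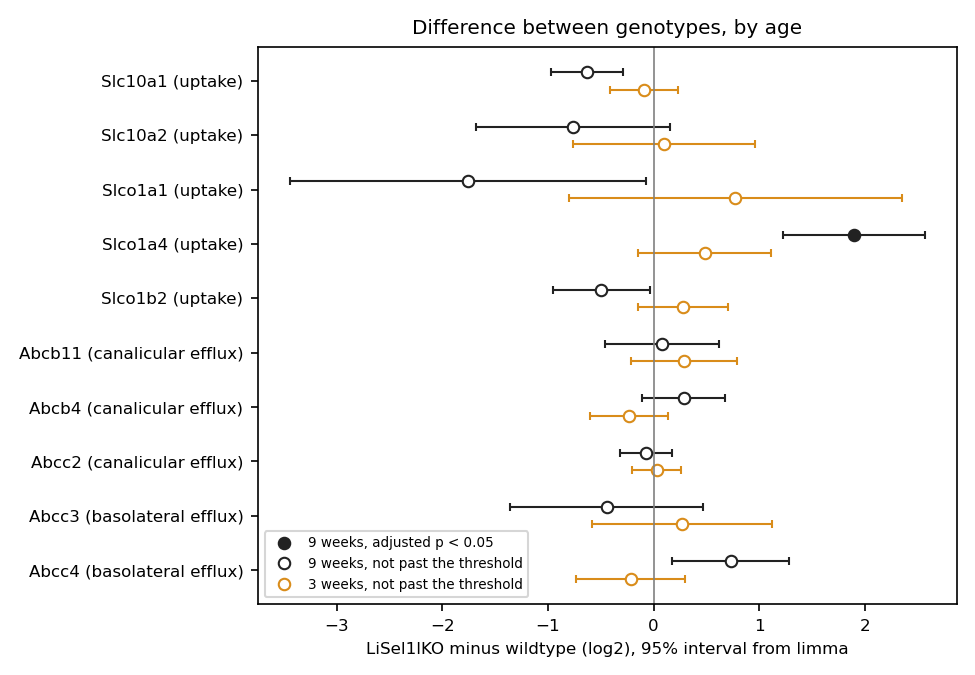
Log2 difference between LiSel1lKO and wildtype livers for each transporter, with the 95% interval of limma's test, at 9 weeks (black, upper) and 3 weeks (orange, lower), a filled point marking an adjusted p under 0.05. Slco1a4 at 9 weeks, at 1.90, is the one filled point.

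The genotype differences were then set against each other between the ages. The interaction was 1.42 ± 0.42 for Slco1a4, -2.53 ± 1.05 for Slco1a1, -0.77 ± 0.29 for Slco1b2, -0.54 ± 0.21 for Slc10a1 and 0.95 ± 0.34 for Abcc4. These 5 of the 10 had an unadjusted p under 0.05 in limma, beside 9.73% of all features, and none passed the adjusted threshold (adjusted p between 0.343 and 0.473), as was so for 0% of features. The interaction of Slc10a1 passed without LiSel1lKO replicate 1 of 9 weeks (-0.77, adjusted p = 0.0465). Without LiSel1lKO replicate 2 of 9 weeks it was -0.42, and over all left-out livers adjusted p reached 0.684. Slco1b2 lay above the wildtype mean in all 4 LiSel1lKO livers at 3 weeks and below it in all 3 at 9 weeks. Without wildtype replicate 1 of 3 weeks its difference at 3 weeks was -0.02. A different genotype effect at the 2 ages is thus not shown for any of the 10.

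Between 3 and 9 weeks the wildtype liver changed its organic anion carriers. Slco1a1 rose by 6.12 and Slc10a2 by 2.33 on the log2 scale, while Slco1a4 fell to 0.183-fold of its level at 3 weeks. The 3-week values of Slco1a1 and Slc10a2 lay below the array medians and may be background, so their rises are not given as folds and their sizes cannot be read as exact. In adult mouse liver Slco1a1 is known as a male-predominant and Slco1a4 as a female-predominant transcript. Of the 10 genes 2 rose and 1 fell, where 1.89% of all features were called, 0.765% higher and 1.12% lower. An unadjusted p under 0.05 was reached by 6 of the 10, beside 13.6% of features. Groups of the 2 ages did not overlap for 7 of 10, 5 higher and 2 lower, beside 17.8% of all features (8.46% higher and 9.38% lower).

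Slco1a1 stood at 9.55, 9.30 and 9.49 at 9 weeks, against 3.71, 3.05 and 3.21 at 3 weeks in wildtype. The difference was 6.12 ± 0.77 (adjusted p = 0.00295). Slco1a4 moved the other way, at 6.56, 5.84 and 5.77 at 9 weeks against 8.40, 8.76 and 8.37 at 3 weeks (difference -2.45 ± 0.31, adjusted p = 0.00294). Slc10a2 stood at 5.31, 4.25 and 4.44 against 2.39, 2.13 and 2.48 (2.33 ± 0.42, adjusted p = 0.0194). The Slc10a2 call was lost without wildtype replicate 1, 2 or 3 of 3 weeks or replicate 1 or 3 of 9 weeks (adjusted p between 0.0517 and 0.0659). The calls of Slco1a1 and Slco1a4 held whichever of the 13 livers was left out.

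Some markers of other cell types also fell with age in wildtype liver, where 1.12% of all features were called lower. Of 9 sinusoidal endothelial markers 3 fell, Lyve1 (-1.14 ± 0.15), Stab2 (-0.44 ± 0.09) and Oit3 (-0.56 ± 0.12), with adjusted p of 0.00438, 0.0337 and 0.0481, and their mean level was 7.78 to 7.87 at 9 weeks against 8.13 to 8.2 at 3 weeks. Of 10 Kupffer cell and macrophage markers 1 fell, Marco (-2.09 ± 0.42, adjusted p = 0.0299), and 9 lay below 0, with a mean level of 7.18 to 7.59 against 7.78 to 7.91. Of 9 stellate cell markers 1 fell, Reln (-0.72 ± 0.15, adjusted p = 0.0315), while 2 lay above 0. Of 5 measured red cell and erythroblast markers 1 fell, Slc4a1 (-1.90 ± 0.34, adjusted p = 0.0197), while 2 lay above 0. The red cell median was -0.03, beside 0.01 over all features. The part of these cells in the age differences was not tested.

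The other wildtype carriers and pumps did not pass the test. Abcc3 stood at 9.49, 9.44 and 9.70 at 9 weeks, above the 8.34, 7.94 and 8.45 of 3 weeks. Its difference was 1.30 ± 0.41 (adjusted p = 0.171, 0.0389 when only the wildtype groups were fitted, and up to 0.335 over all settings). Slco1b2 (0.64 ± 0.21) and Abcc2 (0.26 ± 0.11) were higher and Abcc4 (-0.38 ± 0.25) was lower in each 9-week liver than in any 3-week liver, with adjusted p of 0.185, 0.345 and 0.576. Slc10a1, Abcb11 and Abcb4 overlapped between the ages, with differences of -0.14 ± 0.16, -0.09 ± 0.24 and 0.15 ± 0.18.

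**Figure D4:**
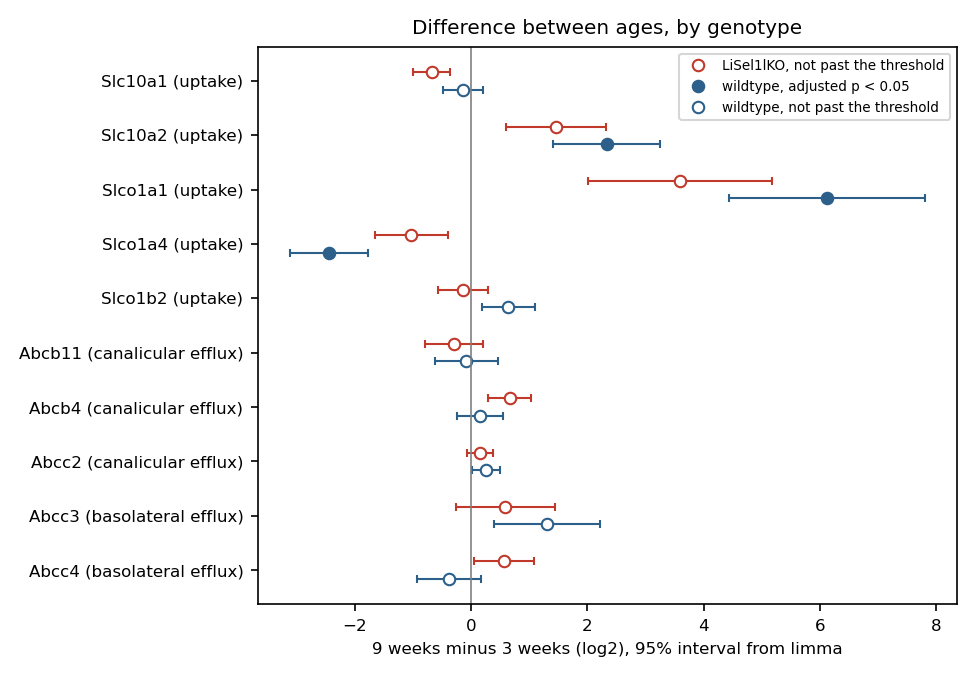
Log2 difference between 9 and 3 weeks for each transporter, with the 95% interval of limma's test, in LiSel1lKO livers (red, upper) and wildtype livers (blue, lower), a filled point marking an adjusted p under 0.05. The 3 filled points are wildtype Slco1a1 at 6.12, Slc10a2 at 2.33 and Slco1a4 at -2.45.

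In LiSel1lKO livers 0 of the 10 genes passed the test between the ages, beside 0.155% of all features (0.0759% higher and 0.0787% lower), and 6 had an unadjusted p under 0.05 beside 10.1%. Slco1a1 stood at 9.11, 6.40 and 7.56 at 9 weeks, against 3.34, 3.69, 6.18 and 3.18 at 3 weeks. All 9-week livers lay higher, and the difference was 3.59 ± 0.72 (adjusted p = 0.0955, and 0.0172 without replicate 3 of 3 weeks). Without replicate 1 of 9 weeks it was 2.88, and over all left-out livers adjusted p reached 0.282. Slco1a4 overlapped between the ages, at 7.82, 8.56 and 7.50 against 8.49, 8.91, 9.19 and 9.38 (-1.03 ± 0.29, adjusted p = 0.218). The difference between the age effects of the genotypes is the interaction given above, which did not pass for Slco1a1 or Slco1a4.

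Slc10a1 was lower in each 9-week than in any 3-week LiSel1lKO liver (-0.68 ± 0.15, adjusted p = 0.115), and Slc10a2 (1.47 ± 0.39, 0.200) and Abcb4 (0.66 ± 0.17, 0.177) were higher in each. These 4 of 10 without overlap, Slco1a1 among them, stand beside 9.35% of features (4.67% higher and 4.69% lower). For Slc10a2 the lowest 9-week liver stood at 2.77 and the highest 3-week liver at 2.74. Both values lay below the array medians and may be background. Slc10a1 passed without LiSel1lKO replicate 1 of 9 weeks (adjusted p = 0.00245) and Slc10a2 without replicate 2 of 9 weeks (0.0434). The Slc10a1 difference was -0.56 without replicate 2, and that of Slc10a2 was 1.05 without replicate 1. Over all left-out livers their adjusted p reached 0.402 and 0.551.

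Uptake was set against efflux by the mean difference of each class from the wildtype mean of that age, a description with no test. The uptake mean was 0.21, -0.78 and -0.48 in the LiSel1lKO livers and 0.26, -0.16 and -0.1 in the wildtype livers of 9 weeks. Replicates 2 and 3 thus lay below every wildtype liver although Slco1a4, which is in this mean, was higher. In replicate 2 Slco1a1 (6.40) and Slc10a2 (2.77) lay furthest below their wildtype means. The canalicular mean was 0.03, 0.03 and 0.23 against -0.12, -0.06 and 0.18, and the basolateral mean was -0.37, 0.62 and 0.17 against -0.13, 0.06 and 0.08. At 3 weeks the uptake mean was 0.11, 0.2, 0.73 and 0.2 in LiSel1lKO livers and -0.03, 0.04 and -0.01 in wildtype livers. The 0.73 of replicate 3 rests mostly on Slco1a1, at 6.18 beside 3.05 to 3.71 in wildtype livers. The canalicular mean lay between -0.18 and 0.22 against -0.26 and 0.22 at that age, and the basolateral mean between -0.36 and 0.69 against -0.17 and 0.14.

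**Figure D5:**
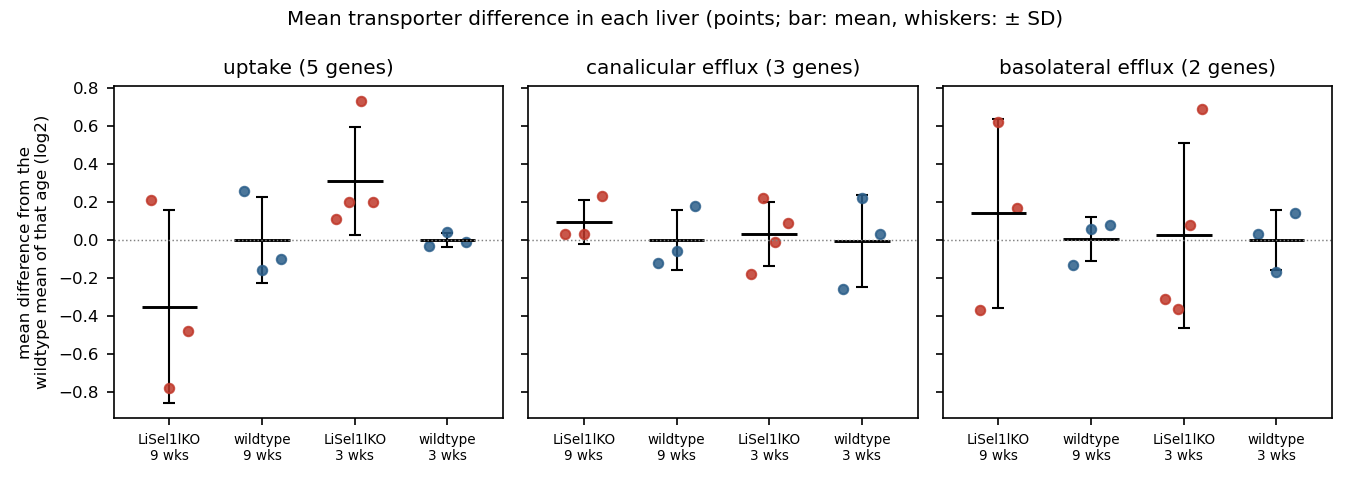
Mean log2 difference from the wildtype mean of the same age over the uptake carriers (5 genes), canalicular pumps (3 genes) and basolateral pumps (2 genes), for each liver (points) with the group mean (bar) and ± SD (whiskers). The uptake mean of LiSel1lKO livers lies between -0.78 and 0.21 at 9 weeks and between 0.11 and 0.73 at 3 weeks, while the canalicular mean stays between -0.18 and 0.23 in all LiSel1lKO livers. The liver at 0.73 is replicate 3, in which Slco1a1 stood at 6.18.

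Other transporters of the same pathway were described from lists. Of 15 measured further efflux pumps and flippases, 3 fell in LiSel1lKO liver at 9 weeks and 0 rose, beside 0.484% of all features lower and 1.03% higher, with a median of -0.21 beside -0.01 over all features. Abcg5 and Abcg8 together encode the canalicular sterol pump. Abcg8 stood at 8.35 ± 0.14 against 9.09 ± 0.12 (SD, n = 3 each; difference -0.73 ± 0.11, adjusted p = 0.0131), and Abcg5 at 8.60 ± 0.08 against 9.46 ± 0.15 (-0.86 ± 0.14, adjusted p = 0.0196). Abcg2 (BCRP, a canalicular pump of sulfate conjugates and drugs) stood at 7.24 ± 0.17 against 8.12 ± 0.18 (-0.88 ± 0.15, adjusted p = 0.0196). Over the 21 alternative settings the Abcg8 difference lay between -0.80 and -0.65 and its call was lost in 4, that of Abcg5 was lost in 6 and that of Abcg2 in 8. Each was lost without LiSel1lKO replicate 2 or 3 or wildtype replicate 1, with adjusted p up to 0.152 over all settings. Of 12 further uptake carriers 0 passed, led by Slc22a7 (OAT2, -1.58 ± 0.37, adjusted p = 0.0614) and Slco2b1 (OATP2B1, -0.88 ± 0.26, 0.131). Slco1a5, Slco1a6 and Slco1c1, from the same chromosome 6 cluster as Slco1a1, lay below the array median in all 13 livers. Whether probes of one Slco1 gene also bind transcripts of another is not given in the sources used here.

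Of 19 measured nuclear receptors and regulators 0 passed at 9 weeks, and 15 lay below 0 (median -0.12 beside -0.01 over all features). Of all features 1.52% passed at 9 weeks, a share that stands beside the counts of scaffold genes and PXR, CAR or NRF2 enzymes too. Nr1h4, the bile acid receptor FXR, differed by -0.46 ± 0.12 (adjusted p = 0.106) and Fgfr4, the receptor for ileal FGF15, by -0.62 ± 0.19 (0.146). Of 13 canalicular scaffold and trafficking genes 1 fell, Slc9a3r1 (NHERF1, an anchor of membrane transporters), at 8.98 ± 0.17 against 9.70 ± 0.02 (-0.73 ± 0.15, adjusted p = 0.0363, call lost in 11 of 21 settings). Of 16 enzymes under PXR, CAR or NRF2 0 passed, led by Cyp3a11 (0.53 ± 0.14, adjusted p = 0.0964) and Gclc (-0.66 ± 0.21, 0.167). Of 17 bile acid synthesis and conjugation enzymes 2 fell and 0 rose, beside 0.484% and 1.03% of all features, with a median of -0.35 beside -0.01. These were the oxysterol hydroxylase Cyp7b1 (-2.76 ± 0.54, adjusted p = 0.0336) and the bile acid-CoA ligase Slc27a5 (-0.51 ± 0.10, 0.0340). Their calls were lost in 11 and 13 of 21 settings. Without LiSel1lKO replicate 1, Nr1h4 (adjusted p = 0.0148) and Fgfr4 (0.0139) passed, where 1178 features were called in place of 539. Without replicate 2 their differences were -0.34 and -0.40. Over all left-out livers their adjusted p reached 0.336 and 0.404. At 3 weeks 0 members of these lists passed.

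Some of these genes also changed with age in wildtype liver, where 0.765% of all features were called higher and 1.12% lower. Of the 12 further uptake carriers 1 rose, Slco2b1 (1.24 ± 0.26, adjusted p = 0.0351, call lost in 9 of 21 settings). Of the 17 bile acid enzymes 3 rose, Cyp7b1, Scp2 and Cyp27a1, and 1 fell, Cyp39a1, the calls of Cyp27a1, Scp2 and Cyp7b1 being lost in 14, 6 and 1 of 21 settings and that of Cyp39a1 in 0. In LiSel1lKO liver Akr1d1, a steroid reductase of bile acid synthesis, fell with age (-1.16 ± 0.19, adjusted p = 0.0477), a call lost in 17 of 21 settings.

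The genes whose pattern over the 13 livers was most like that of a changed transporter were ranked by Pearson's r, as a description that rests largely on the groups the livers share. For Slco1a1 they were Mup5 (r = 0.978), Mup20 (0.974), both major urinary protein genes, and Slc22a30 (0.970). For Slco1a4 they were Cyp2a22 (0.960), Idh2 (0.951) and Tenm3 (0.950). For Slc10a2 they were Tulp4 (0.927), Marchf8 (0.927) and Cyp4a12a (0.925). Between the transporters themselves r was -0.815 for Slco1a1 with Slco1a4, 0.906 for Slco1a1 with Slc10a2 and -0.835 for Slco1a4 with Slc10a2.

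The array names carry a plate-like code with the number 5 or 7, and each group held both. Within number 5 the Slco1a4 difference at 9 weeks was 1.82 (2 LiSel1lKO livers, 1 wildtype) and within number 7 it was 2.40 (1 LiSel1lKO, 2 wildtype). For Slco1a1 these were -0.96 and -3.12, for Slc10a1 -0.53 and -0.86, and for Slco1b2 -0.40 and -0.62. For Slc10a2 they were 0.22 and -2.10, with opposite signs. In wildtype ageing the Slco1a4 difference was -2.55 within number 5 and -2.59 within number 7, the Slco1a1 difference 5.84 and 6.48, and the Slc10a2 difference 1.81 and 2.74. These values have 1 or 2 livers on each side and no test.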

How the data were processed

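Liver RNA of 13 mice was hybridised, 1 array per liver. The values used are the authors' deposited log2 expression values, made by RMA per the submitters' processing notes. This method subtracts background, quantile-normalizes probes and summarises them per feature. Its version, software and genome build are not stated there. A shift common to most genes would be largely removed. The table held 35556 features and carried no detection calls, and the number of arrays limits the precision. Features were named from the platform annotation (21218 with 1 symbol), and a gene was represented by its feature with the highest mean.

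Groups came from the sample titles, which name a mouse and a replicate number. The labels do not state litters or hybridisation days, so p-values measure the spread between these samples. limma 3.58.1 in R 4.3.3 fitted a mean per group over 13 livers (lmFit, eBayes, two-sided), with Benjamini-Hochberg adjustment across the whole table. This was tested on simulated data. Same-numbered livers deviated together only slightly (r between -0.01 and 0.08 over 18 pairs), so no block was used. The median r was 0.03, beside -0.01 for livers of different numbers. Both 9-week livers titled replicate 3 carry number 4 in the array names, and by those numbers r lay between -0.02 and 0.08 over 16 pairs. Alternatives were a replicate block (by the titles' numbers and, chosen after seeing the data, by the array names'), the number in the array names as a block, other feature sets, median centring, pairwise fits, another variance model, and leaving out each liver. Named genes were the 10 transporters, Sel1l, up to 4 called (otherwise the 2 of smallest p) members of each list, and the 3 most similar genes per changed transporter, predicted genes left out. Members and lists were chosen with earlier results of these data known. Promoters came from RefSeq (GRCm38.p6).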

Additional observations from a re-analysis of the deposited data

Results flagged for a closer look

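Slco1a1 in replicate 3 of the LiSel1lKO livers at 3 weeks stood at 6.18, against 3.18 to 3.69 in the other 3, a gap of 0.832 of the group's whole range above Dixon's 95% critical value for a group of 4. Chance flags about 1 in 20 groups. Slco1b2 lay above the wildtype mean in every LiSel1lKO liver at 3 weeks and below it in every one at 9 weeks, an interaction of -0.77 that did not pass limma's test (adjusted p = 0.432). The 3-week wildtype mean includes the low replicate 1 (9.03). Without that liver the genotype difference at 3 weeks was -0.02 in place of 0.28.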

How the results depend on the processing

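The alternatives gave 1517 values for single genes, of which 1374 kept direction and side of the threshold, 111 lost the call, 15 gained it and 17 turned sign. Features called at 9 weeks between genotypes were 539, and 184 with the replicate block, 294 with the array number as a block, 859 above the median mean and 1 with only the 9-week groups; leaving out 1 liver gave 18 to 1178. Transporters called there were 1, and 2 with features of 1 symbol or above the median mean, 0 with only those groups, and 0 to 3 with 1 liver left out, the 3 without LiSel1lKO replicate 1. At 3 weeks 0 features were called (2634 at an unadjusted p under 0.05 in limma), 2 with features of 1 symbol and 0 to 1 with 1 liver left out. For the interaction 0 were called (3459 unadjusted), 15 with features of 1 symbol and 0 to 36 with 1 liver left out, with 0 to 1 transporters. For age in LiSel1lKO 55 features were called, and 12 with the replicate block, 18 with the array number, 144 with 1 symbol, 109 above the median mean, 35 after median centring, 9 with only those groups, and 6 to 210 with 1 liver left out. Transporters called there were 0, 1 with features of 1 symbol (Slco1a1), and 0 to 1 with 1 liver left out. For age in wildtype 672 features were called, 440 with the replicate block, 255 with only those groups and 296 to 639 with 1 liver left out. Transporters called there were 3, and 4 with only those groups (Abcc3 added), 2 above the median mean, where Slc10a2 was not tested, and 2 to 3 with 1 liver left out. The titles do not say whether their numbers pair livers. In that replicate block LiSel1lKO replicate 4 of 3 weeks, alone in its number, adds nothing. This block left the called transporters unchanged in number. The array names give both 9-week livers titled replicate 3 the number 4. A replicate block by those numbers, chosen after seeing the data, called 152 features and 0 transporters at 9 weeks (Slco1a4 1.90, adjusted p = 0.0662), 13 features for age in LiSel1lKO and 381 for age in wildtype, with 3 transporters, and turned no sign. With the titles' numbers the Abcc3 difference at 3 weeks was -0.066 in place of 0.27 and that of Sel1l with age in LiSel1lKO -0.11 in place of 0.07. Signs also turned for differences near 0 with 1 liver left out, whose ranges were -0.0017 to 0.17 (Slc10a2), -0.019 to 0.50 (Slco1b2), -0.054 to 0.088 (Abcc2) and -0.066 to 0.53 (Abcc3) at 3 weeks, -0.029 to 0.18 (Abcb11) and -0.15 to 0.0023 (Abcc2) at 9 weeks, -0.11 to 0.32 (Sel1l with age in LiSel1lKO), and -0.28 to 0.19 (Abcb11) and -0.024 to 0.26 (Abcb4) with age in wildtype. No called transporter changed sign. The causes were not tested. Each transporter had 1 feature, so no other feature could be tried. Without detection calls, levels of Slc10a2 and of Slco1a1 at 3 weeks may be background.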
